A study of Mus musculus with 4 samples.

Results

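The genes that drive mitosis and those that encode the anaphase-promoting complex (APC/C) were followed in HT-22 cells, an immortalized line that goes back to neurons of the mouse hippocampus, with and without overexpression of PGC-1α and with and without oxygen and glucose deprivation (OGD). The set holds 49 named genes, chosen by their role in mitosis with earlier results of these data known. All 49 had a row in the deposited table, which covers 11502 gene symbols. Cdc26, a subunit gene of the APC/C whose value stood apart in a single library, is described separately from the other 48 genes, which are called the members below. The members fell into 9 role sets, from the kinases that start mitosis to the protease that separates the chromatids.

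The libraries of the 4 groups were labelled Ctrl (genotype Wild type, no treatment), PGC-A (genotype PGC-1alpha overexpression, no treatment, called PGC-1α here), Ctrl-OGD and PGC-OGD (the same genotypes after OGD, called Ctrl+OGD and PGC-1α+OGD). By the methods of the study, control cells carried a negative control lentivirus and the other cells a lentivirus that overexpresses PGC-1α, and both were selected with puromycin. By that account every group shares infection and selection, while the labels of the control libraries give only the genotype Wild type. Whether the selected cells were a clone or a pool is not given in the sources used here. OGD lasted 2 h without serum, glucose and oxygen, after which the cells were kept for 24 h in normal medium, so the OGD libraries describe cells after recovery. The loss of serum, of glucose and of oxygen and the return to normal medium came together and cannot be told apart. Each group had 1 library, so no difference has a replicate check, no p value was computed, and a difference between genes or groups cannot be set against an experimental error.

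The unit was taken to be FPKM, a fragment count divided by transcript length and sequencing depth, and the transcripts of a gene were summed. The column totals ranged from 331892 in Ctrl to 353381 in Ctrl+OGD, and the reads behind them are unknown. Ppargc1a, which encodes PGC-1α, was listed at 0.900 FPKM (Ctrl), 35.1 FPKM (PGC-1α), 0.103 FPKM (Ctrl+OGD) and 8.41 FPKM (PGC-1α+OGD), which matched the labels of all 4 libraries. None of 15 neuron marker genes, among them Rbfox3, Map2 and Tubb3, had a row in the table analysed here. All 6 mesenchymal markers had one, with a summed level of 909 to 986 FPKM, and the summed levels of astrocyte (2 of 5 genes with a row), oligodendrocyte (1 of 5) and microglia markers (1 of 5) stayed at or below 5.62 FPKM. Of the mesenchymal sum in Ctrl, Vim, Col1a2 and Col1a1 gave 398, 248 and 175 FPKM, and Col3a1 3.17 FPKM. The study describes HT-22 as a line of hippocampal neurons, which the neuron markers searched here did not bear out. As the filter on the deposited values is not given, a missing row is not a measured low level. The cells are called HT-22 cells throughout.

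Mitosis starts when cyclin B and Cdk1 become active together with Polo-like and Aurora kinases. Condensin then compacts the chromosomes, kinetochores attach them to spindle microtubules, and a checkpoint holds back the APC/C until every chromosome is attached. The APC/C, a ubiquitin ligase, then marks securin and cyclin B for destruction, so that separase can part the sister chromatids. Transcripts of many of these genes accumulate in cells that are in G2 and mitosis, and in a bulk library more cells in these phases and more RNA per cell cannot be told apart.

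The members were expressed in every library, with mean levels between 15.0 FPKM (Cdc25c, a phosphatase that activates Cdk1) and 167 FPKM (Top2a, the topoisomerase that untangles sister chromatids). Their summed level was 1956 FPKM (Ctrl), 2346 FPKM (PGC-1α), 2661 FPKM (Ctrl+OGD) and 2713 FPKM (PGC-1α+OGD). As a share of all values in a library this was 0.589%, 0.694%, 0.753% and 0.781%, in the same order. Ctrl was thus the lowest library and both OGD libraries were the highest and close to each other. Of the 48 members, 41 had their lowest value in Ctrl, compared with 28.2% of the 10604 genes whose mean over the libraries reached 1 FPKM, which are called all genes compared. The highest value lay in Ctrl+OGD for 22 members, in PGC-1α+OGD for 21, in Ctrl for 3 and in PGC-1α for 2. In 36 members Ctrl was lowest and PGC-1α next, an order found in 13.9% of all genes compared. The spread within a gene was moderate, with a median ratio of the highest to the lowest library of 1.47 over the members and of 1.38 over all genes compared.

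**Figure D1:**
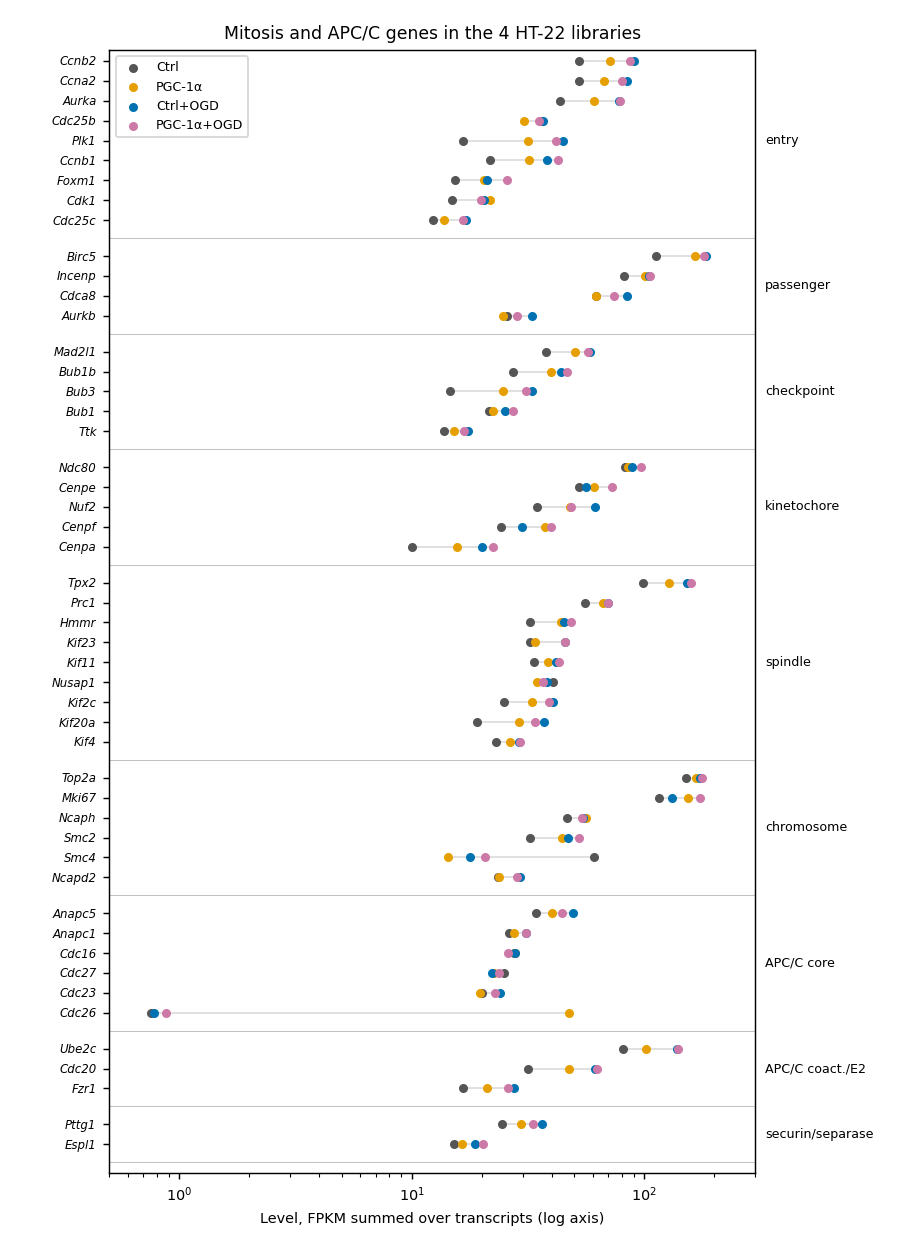
Level of each of the 49 genes in the 4 libraries, as FPKM summed over transcripts on a log axis, grouped by role, with 1 point per library and a line from the lowest to the highest library. Ctrl is the lowest point for 41 of 48 members, Smc4 is the member with Ctrl far above the other libraries, and Cdc26 is near 1 FPKM in all libraries except PGC-1α.

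Fold changes were computed as differences of log2(FPKM + 1), and 1.5-fold was the threshold for calling a gene higher or lower. In Ctrl+OGD vs Ctrl, which asks how OGD without overexpression left these genes, the median log2 fold change of the members was 0.45. Over all genes compared it was -0.02. At least 1.5-fold higher were 17 of 48 members (13 with equal column totals), while 6.2% of all genes compared were (4.69%). Smc4 was the 1 member at least 1.5-fold lower, where the background was 7.71%. Below 0 were 3 members, Smc4, Cdc27 and Nusap1, while 52% of all genes compared were below 0. The member closest below the threshold was Pttg1, at 0.56.

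OGD in overexpressing cells was read from PGC-1α+OGD vs PGC-1α, where the median of the members was 0.22 and that of all genes compared was 0.0007. No member reached 1.5-fold in either direction, with backgrounds of 3.82% higher and 5.22% lower, and the members ranged from -0.12 to 0.50. The direction was nevertheless nearly uniform, since 3 of 48 members were below 0 (Cdk1, Cdc16 and Ncaph), against 49.9% of all genes compared. These 2 OGD comparisons share no library. In both of them 42 members lay above 0, compared with 30.8% of all genes compared.

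In PGC-1α vs Ctrl, which asks what overexpression did without OGD, the median of the members was 0.28, compared with -0.03 over all genes compared. Plk1, Bub3, Cenpa and Cenpf were at least 1.5-fold higher, 4 of 48 members against a background of 4.91%. With median ratio scaling these were 7 of 48 against 5.64%, with upper quartile scaling 3 against 4.64%, and with equal column totals 3 against 4.56%. Smc4 was at least 1.5-fold lower, as were 5.63% of all genes compared. Below 0 were 6 members (Cdc25b, Aurkb, Nusap1, Smc4, Cdc23 and Cdc27), against 54.2% of all genes compared. Kif20a was the member closest below the threshold, at 0.57. This comparison and Ctrl+OGD vs Ctrl share the Ctrl library, so a low value in that library raises both.

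In PGC-1α+OGD vs Ctrl+OGD, which asks what overexpression did after OGD, the median of the members was -0.0023, beside -0.01 over all genes compared. No member was 1.5-fold higher (background 3.08%) or 1.5-fold lower (background 3.82%). The values were split evenly, with 23 members above 0 and 25 below, and 52.9% of all genes compared were below 0. The largest rise was 0.40 for Cenpf and the largest fall was -0.33 for Nuf2. Above 0 in both comparisons of PGC-1α with control, which share no library, were 21 of 48 members, compared with 23.3% of all genes compared. The difference between these 2 PGC-1α effects, with OGD minus without, had a median of -0.26 over the members, and 41 of them were below 0. Over all genes compared the median was 0.01, and 49.3% were below 0.

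**Figure D2:**
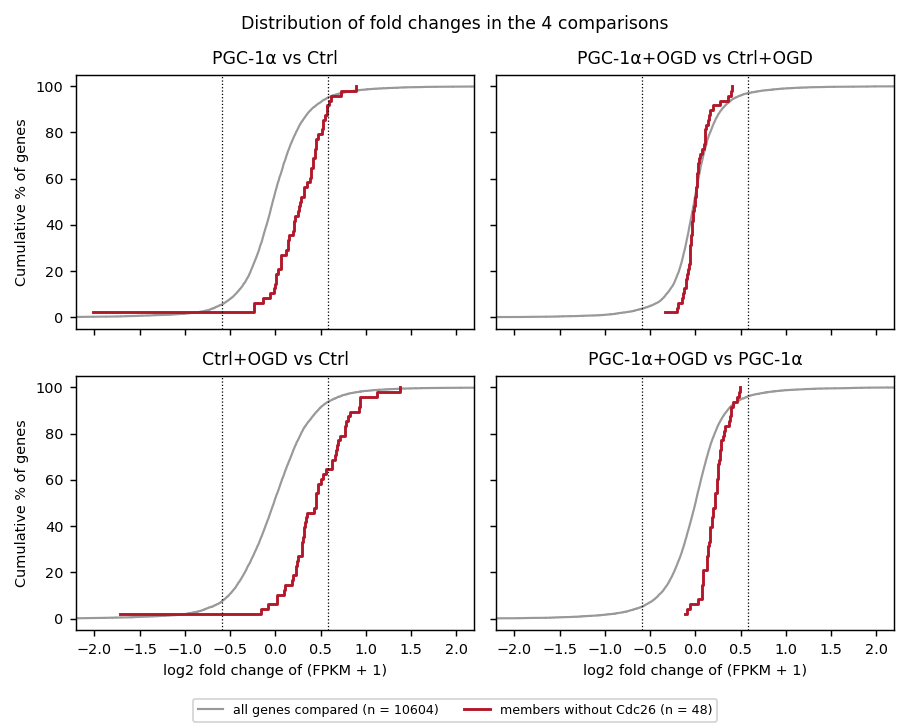
Cumulative percentage of genes (y axis) against the log2 fold change of FPKM + 1 (x axis) in each of the 4 comparisons, for the 48 members and for the 10604 genes compared, with dotted lines at 1.5-fold. The curve of the members lies to the right of all genes in PGC-1α vs Ctrl (median 0.28), Ctrl+OGD vs Ctrl (0.45) and, by less, PGC-1α+OGD vs PGC-1α (0.22), and on top of it in PGC-1α+OGD vs Ctrl+OGD (-0.0023).

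Promoters of mitotic genes are known for a pair of short elements, the cell cycle genes homology region (CHR), which is bound by the DREAM and MuvB complexes that silence these genes outside G2 and mitosis and activate them within, and the CCAAT box bound by NF-Y. Both were searched on both strands in RefSeq promoter windows of GRCm38.p6, which run from 250 bases before the transcription start to 50 bases after it, as the letters TTTGAA for the CHR core, TTCGAA for its variant and CCAAT for the NF-Y box. Of the 48 members, 39 were in this promoter collection. A CHR core was present in 24 of 39 members (61.5%), compared with 20.2% of all 27025 genes of the collection and 14.4% of the 8406 genes compared that it holds. An NF-Y box was present in 29 of 39 members (74.4%), compared with 41.1% and 44.1%. Both occurred together in 22 members (56.4%), compared with 7.97% and 6.35%, and the CHR variant in 4 members (10.3%), compared with 1.80% and 2.65%. Of 72 other mitosis genes, a CHR core was found in 54.2%, while it was found in 13.3% of 45 DNA replication genes, although 62.2% of the latter held an NF-Y box.

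Most CHR matches lay close to the start. Of 29 CHR matches in the members, 21 began no more than 50 bases before the start or after it, with a median position of -15. Of 65 NF-Y boxes, 22 did so and 44 began no more than 100 bases before it or after it, with a median position of -71. Positions in other genes were not counted. A CHR match and an NF-Y box overlapped in 1 case. The stretches below are those of members at least 1.5-fold higher in Ctrl+OGD vs Ctrl that hold both elements between 100 bases before the start and the first bases of the annotated transcript, and they are shown because the elements that the members share can be read in them. They are the cyclin gene Ccnb2 (chr9:70421535-70421654, minus strand), the APC/C coactivator gene Cdc20 (chr4:118437333-118437443, minus strand) and the ubiquitin-conjugating enzyme gene Ube2c (chr2:164769829-164769917, plus strand). Each is written 5′ to 3′ along the gene with the elements in capitals, where ATTGG and TTCAAA are the NF-Y box and the CHR core read on the other strand.
Ccnb2: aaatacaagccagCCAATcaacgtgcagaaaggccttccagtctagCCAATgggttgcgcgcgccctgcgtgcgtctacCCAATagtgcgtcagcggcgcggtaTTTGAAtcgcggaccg
Cdc20: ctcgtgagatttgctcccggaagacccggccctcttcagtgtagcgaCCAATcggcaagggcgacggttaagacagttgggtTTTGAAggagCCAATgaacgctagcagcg
Ube2c: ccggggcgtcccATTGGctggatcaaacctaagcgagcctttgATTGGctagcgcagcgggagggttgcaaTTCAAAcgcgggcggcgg
The Ccnb2 stretch holds 3 NF-Y boxes and the Ube2c stretch 2, all upstream of the CHR core. The Cdc20 stretch holds 2, which begin at -53 and -8, on either side of its CHR core at -18.

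**Figure D3:**
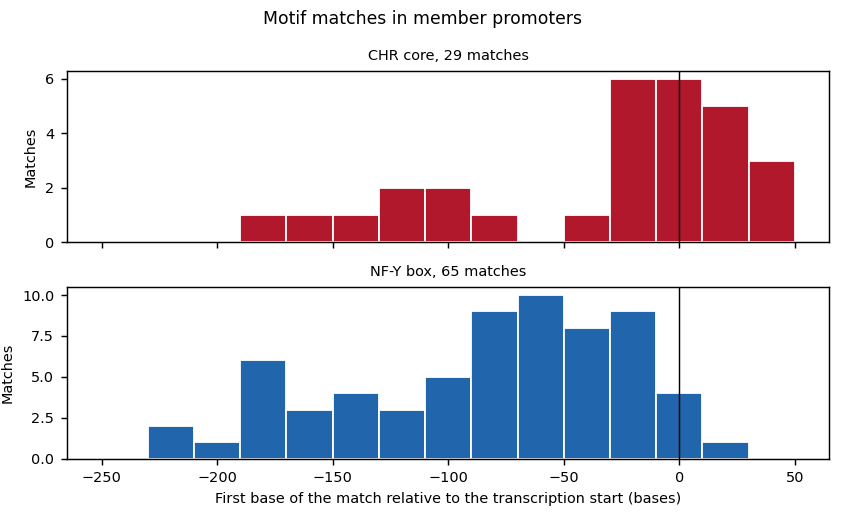
Number of matches (y axis) against the position of their first base relative to the RefSeq transcription start in bases (x axis), for the CHR core (29 matches) and the NF-Y box (65 matches) in the promoters of the members. CHR matches gather around the start (median -15) and NF-Y boxes upstream of it (median -71).

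The members with and without a CHR core were also set side by side. In Ctrl+OGD vs Ctrl the median was 0.46 in the 24 members with a CHR core and 0.24 in the 15 without one. At least 1.5-fold higher were 9 (37.5%) and 5 (33.3%) of them, which are similar shares. Over the genes compared in the promoter collection, the shares with and without a CHR core were 6.69% and 6.12%. By the NF-Y box the shares were 34.5% of 29 members with it and 40% of 10 without it. By both elements together they were 36.4% with and 35.3% without. Without OGD, in PGC-1α vs Ctrl, the medians with and without a CHR core were 0.40 and 0.22. At least 1.5-fold higher were 4 of 24 and 0 of 15. Over the genes compared in the promoter collection, these shares were 4.79% of 1211 with a CHR core and 4.82% of 7195 without one. In the OGD comparison of PGC-1α cells the medians were 0.24 and 0.16. With 1 library per group none of these differences was tested. Among all genes compared, the 534 with both elements had a median of 0.05 in Ctrl+OGD vs Ctrl, with a share of 8.61% at least 1.5-fold higher, compared with 6.03% of the others. The 22 members with both elements, which are counted among the 534, had a median of 0.46. A match is a description of letters, and binding was not measured.

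In Ctrl+OGD vs Ctrl the median over the genes of mitotic entry was 0.66. At least 1.5-fold higher were 5 of 9, against 6.2% of all genes compared. Plk1, the Polo-like kinase that acts from entry to cytokinesis, was listed at 16.6 FPKM (Ctrl), 31.6 FPKM (PGC-1α), 44.9 FPKM (Ctrl+OGD) and 41.7 FPKM (PGC-1α+OGD). This was the largest rise of any member both in Ctrl+OGD vs Ctrl (1.38) and in PGC-1α vs Ctrl (0.89), and Ctrl stood alone below the other 3 libraries. After OGD, PGC-1α+OGD vs Ctrl+OGD gave -0.10 for Plk1.

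Aurka, the Aurora kinase of centrosome maturation, followed the same order, with 43.5 FPKM for Ctrl, 60.7 FPKM for PGC-1α, and 78.0 and 78.7 FPKM for the OGD libraries without and with PGC-1α. Its log2 fold change was 0.83 in Ctrl+OGD vs Ctrl and 0.37 in PGC-1α+OGD vs PGC-1α. Both B-type cyclins, the partners of Cdk1, were lowest in Ctrl and highest after OGD. Ccnb1 was listed at 21.8, 32.0, 38.3 and 42.4 FPKM in the same order of libraries, with 0.79 in Ctrl+OGD vs Ctrl. For Ccnb2, whose promoter stretch is printed above, the values were 52.4, 71.2, 90.0 and 87.0 FPKM, with 0.77. Ccna2, the A-type cyclin of S phase and early mitosis, had 52.6, 67.3, 83.9 and 80.3 FPKM and a log2 fold change of 0.66 in the same comparison. In all 3 cyclin genes the OGD libraries with and without PGC-1α differed by at most 0.14 on the log2 scale.

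By the sum of transcripts, the other entry genes moved less. Cdk1 itself, the kinase of these cyclins, had 14.9 FPKM in Ctrl and 21.7, 20.4 and 19.9 FPKM in PGC-1α, Ctrl+OGD and then PGC-1α+OGD, so that its highest value lay in the PGC-1α library without OGD. In PGC-1α+OGD vs PGC-1α its value of -0.12 was the lowest of any member. Foxm1, a transcription factor of G2 and M phase genes, was listed at 15.3, 20.4, 21.2 and 25.8 FPKM. Its value was highest in PGC-1α+OGD, with 0.27 against Ctrl+OGD. In Ctrl+OGD vs Ctrl the sum for Foxm1 had 0.45, and its main transcript, ENSMUST00000073316, had 0.77. Of the phosphatases that activate Cdk1, Cdc25c had 0.45 in Ctrl+OGD vs Ctrl, while Cdc25b had 0.02 and was the lowest entry gene in PGC-1α vs Ctrl, at -0.24 (from 35.9 to 30.3 FPKM).

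The chromosomal passenger complex, which corrects wrong attachments and guides cytokinesis, had a median of 0.40 in Ctrl+OGD vs Ctrl and of 0.15 in PGC-1α vs Ctrl. Birc5, which encodes survivin, was listed at 112 FPKM (Ctrl), 165 FPKM (PGC-1α), 184 FPKM (Ctrl+OGD) and 181 FPKM (PGC-1α+OGD). It was the 1 of 4 genes at least 1.5-fold higher in Ctrl+OGD vs Ctrl (0.71), where the background was 6.2%. Incenp, the scaffold of the complex, had 82.0, 100.2, 105 and 106 FPKM in the same order, with 0.35. Its kinase gene Aurkb and the subunit gene Cdca8 differed from these in the PGC-1α library, where Aurkb had -0.05 and Cdca8 0.01 against Ctrl. After OGD they had 0.34 and 0.45 against Ctrl, and both were lower in PGC-1α+OGD than in Ctrl+OGD, at -0.20 and -0.19.

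Of the 5 spindle checkpoint genes, 3 were at least 1.5-fold higher in Ctrl+OGD vs Ctrl, against 6.2% of all genes compared. The median of the 5 genes was 0.62. Bub3, a subunit of the complex that inhibits the APC/C, was listed at 14.6 FPKM (Ctrl), 24.7 FPKM (PGC-1α), 33.0 FPKM (Ctrl+OGD) and 30.9 FPKM (PGC-1α+OGD). Its log2 fold change of 1.13 in Ctrl+OGD vs Ctrl came second to Plk1, but its transcripts did not move together. ENSMUST00000084502, the main one, was listed at 10.7, 21.8, 14.8 and 27.4 FPKM in that order of libraries, and ENSMUST00000207442 at 2.09, 1.69, 16.9 and 2.36 FPKM. By the main transcript alone, PGC-1α+OGD stood above Ctrl+OGD, and by the sum it stood slightly below.

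Bub1b, the kinase-like checkpoint protein BubR1, had 27.3 FPKM in Ctrl and 39.7, 43.9 and 46.3 FPKM in PGC-1α, Ctrl+OGD and then PGC-1α+OGD, from a single transcript, with 0.67 in Ctrl+OGD vs Ctrl. Mad2l1, which encodes the inhibitor Mad2, had 37.6 FPKM in Ctrl and 50.5, 58.5 and 57.4 FPKM in the others, with 0.62. Both therefore showed the order of the whole set, with Ctrl lowest, PGC-1α next and the OGD libraries highest. The kinase genes of the checkpoint moved less, with 0.22 for Bub1 and 0.32 for Ttk in the same comparison.

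The kinetochore genes were mixed, with a median of 0.29 in Ctrl+OGD vs Ctrl and 0.45 in PGC-1α vs Ctrl. Cenpa, the histone H3 variant that marks centromeres, was listed at 10.0 FPKM (Ctrl), 15.7 FPKM (PGC-1α), 20.1 FPKM (Ctrl+OGD) and 22.4 FPKM (PGC-1α+OGD). It was at least 1.5-fold higher both in Ctrl+OGD vs Ctrl (0.94) and in PGC-1α vs Ctrl (0.60). Nuf2, a microtubule-binding subunit of the Ndc80 complex, had 34.7, 47.8, 61.4 and 48.6 FPKM, so that Ctrl+OGD stood highest and both PGC-1α libraries lay between it and Ctrl, with 0.81 against Ctrl and -0.33 in PGC-1α+OGD vs Ctrl+OGD. Ndc80, of the same complex, stayed between 82.8 and 96.3 FPKM. The kinesin gene Cenpe and the kinetochore protein gene Cenpf departed from the order of the set, since their higher values lay in both PGC-1α libraries. Cenpf was listed at 24.1 and 37.6 FPKM in Ctrl and PGC-1α and at 29.7 and 39.6 FPKM in Ctrl+OGD and PGC-1α+OGD, with 0.62 and 0.40 in the comparisons of PGC-1α with control. Cenpe had 52.2 and 60.6 FPKM without OGD and 56.2 and 72.8 FPKM after it, with 0.21 and 0.37.

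Of the 9 genes for spindle motors and microtubule proteins, 3 were at least 1.5-fold higher in Ctrl+OGD vs Ctrl, where the background was 6.2%. The median of the 9 genes was 0.47. Tpx2, which activates Aurora A on the spindle, was listed at 98.4 FPKM (Ctrl), 128 FPKM (PGC-1α), 153 FPKM (Ctrl+OGD) and 159 FPKM (PGC-1α+OGD), with 0.63. Kif2c, a kinesin that shortens microtubules at centromeres, had 24.9, 33.0, 40.6 and 39.0 FPKM, with 0.68. Kif20a, a kinesin of cytokinesis, had 19.1, 29.0, 37.1 and 33.8 FPKM by the sum of its transcripts, with 0.92. This sum hid an exchange between transcripts that differ little in length (3107 and 3146 bases). ENSMUST00000167161 was listed at 19.1 and 29.0 FPKM without OGD (Ctrl, PGC-1α) and at 4.79 and 17.1 FPKM after it. ENSMUST00000166044 was listed at 0.0226 and 0.0255 FPKM without OGD and at 32.4 and 16.8 FPKM after it. The direction of Kif20a therefore rests on summing.

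Prc1, which bundles the antiparallel microtubules of the central spindle, had 55.4, 66.2, 69.9 and 69.8 FPKM over 10 transcripts, with 0.33 in Ctrl+OGD vs Ctrl. The kinesin genes Kif11, Kif23 and Kif4 and the microtubule regulator Hmmr had 0.31, 0.48, 0.32 and 0.47. Nusap1, a microtubule-stabilizing protein of the spindle, was an exception, at 40.6 FPKM in Ctrl and 34.4, 38.2 and 36.6 FPKM in PGC-1α, Ctrl+OGD and then PGC-1α+OGD, and it was 1 of 3 members with their highest value in Ctrl.

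The 6 genes of condensin and the mitotic chromosome had the lowest median of the role sets in Ctrl+OGD vs Ctrl, at 0.21. None of them was 1.5-fold higher, against 6.2% of all genes compared. Top2a was listed at 151 FPKM in Ctrl and at 167, 173 and 177 FPKM in PGC-1α, Ctrl+OGD and then PGC-1α+OGD. Mki67, the proliferation marker that coats mitotic chromosomes, had 116 and 154 FPKM in Ctrl and PGC-1α and 132 and 173 FPKM in Ctrl+OGD and PGC-1α+OGD. As with Cenpf and Cenpe, both PGC-1α libraries stood above both control libraries in Mki67, with 0.41 without OGD and 0.39 with it.

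Smc4, an ATPase subunit that condensin I and condensin II share, went against the set. It was listed at 60.8 FPKM (Ctrl), 14.3 FPKM (PGC-1α), 17.8 FPKM (Ctrl+OGD) and 20.6 FPKM (PGC-1α+OGD). Ctrl stood far above the other 3 libraries, and the log2 fold changes were -2.02 in PGC-1α vs Ctrl and -1.71 in Ctrl+OGD vs Ctrl. Of all genes compared, 23 fell further in the former and 50 in the latter. Between the libraries other than Ctrl it had 0.20 in PGC-1α+OGD vs Ctrl+OGD and 0.50 in PGC-1α+OGD vs PGC-1α. No member rose further in the latter. Nearly the whole value came from ENSMUST00000042901, at 60.5, 13.8, 17.0 and 19.8 FPKM. Smc2, its partner ATPase, had 32.2 FPKM in Ctrl and 44.2, 47.0 and 52.5 FPKM in PGC-1α, Ctrl+OGD and then PGC-1α+OGD, so that Ctrl was its lowest library, where Smc4 had its highest. The non-SMC subunit genes Ncapd2 and Ncaph had 0.29 and 0.23 in Ctrl+OGD vs Ctrl.

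**Figure D4:**
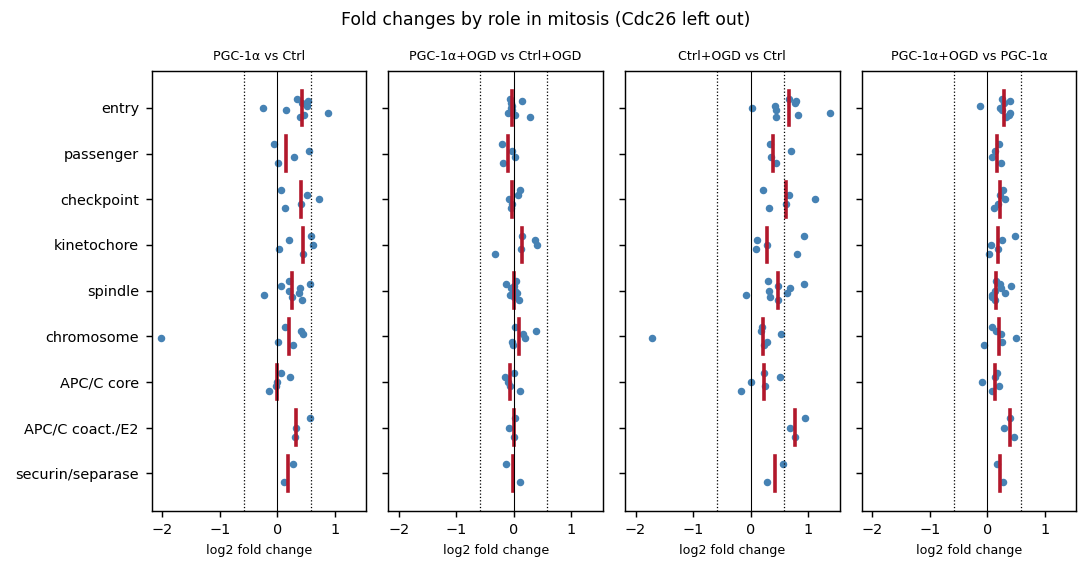
Log2 fold change of FPKM + 1 (x axis) of the 48 members in the 4 comparisons, by role set (y axis), with 1 point per gene, a red bar at the median of each set and dotted lines at 1.5-fold. The APC/C coactivator and E2 genes (median 0.77) and the entry genes (0.66) lie highest in Ctrl+OGD vs Ctrl, the APC/C core lies near 0 in most comparisons, and the isolated point at the left is Smc4.

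The APC/C genes among the members split by role. The activators and the ubiquitin-conjugating enzyme Ube2c were among the members that stood highest after OGD. In Ctrl+OGD vs Ctrl 3 of 3 were at least 1.5-fold higher, against 6.2% of all genes compared. Ube2s, a further such enzyme outside the members, had 0.50 there. Cdc20, the coactivator that starts anaphase and the target of the checkpoint, was listed at 31.6 FPKM (Ctrl), 47.3 FPKM (PGC-1α), 61.4 FPKM (Ctrl+OGD) and 62.6 FPKM (PGC-1α+OGD), all from a single transcript. Its log2 fold changes were 0.94 in Ctrl+OGD vs Ctrl, 0.57 in PGC-1α vs Ctrl and 0.03 in PGC-1α+OGD vs Ctrl+OGD. Ube2c, which loads the first ubiquitins on APC/C substrates, had 81.1 and 101 FPKM without OGD (Ctrl, PGC-1α) and 139 and 139.6 FPKM after it, with 0.77 in Ctrl+OGD vs Ctrl. Its value of 0.46 in PGC-1α+OGD vs PGC-1α was exceeded among the members by Smc4 and Cenpa. Fzr1, which encodes Cdh1, the coactivator of late mitosis and G1, had 16.6, 21.02, 27.5 and 25.9 FPKM, with 0.69 in Ctrl+OGD vs Ctrl.

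The core of the complex moved less. The 5 core subunit genes among the members had medians of 0.24 in Ctrl+OGD vs Ctrl and 0.00097 in PGC-1α vs Ctrl. The medians were -0.07 in PGC-1α+OGD vs Ctrl+OGD and 0.14 in PGC-1α+OGD vs PGC-1α. By the sum of transcripts, none of these genes reached 1.5-fold. Anapc5, a scaffold subunit, was the one furthest from 0, at 34.3 and 40.1 FPKM without OGD (Ctrl, PGC-1α) and 49.2 and 44.2 FPKM after it, with 0.51 in Ctrl+OGD vs Ctrl. This value rests on summing 6 transcripts. In that comparison the main one, ENSMUST00000086216, had 0.73, past 1.5-fold, while ENSMUST00000199406 had -0.42. Anapc1, the largest scaffold subunit, had 26.1, 27.4, 30.9 and 30.9 FPKM. Of the tetratricopeptide repeat subunits, which form the arc that holds the coactivator, Cdc16 stayed between 25.9 and 27.9 FPKM, Cdc23 between 19.7 and 23.9 FPKM, and Cdc27 between 22.1 and 24.8 FPKM with its highest value in Ctrl. Securin and separase, at the end of the pathway, lay between these groups. Pttg1, which encodes securin, was listed at 24.4, 29.6, 36.5 and 33.2 FPKM, with 0.56 in Ctrl+OGD vs Ctrl, and Espl1, which encodes separase, at 15.1, 16.5, 18.7 and 20.2 FPKM, with 0.29.

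The sum of Pttg1 also hid a change of transcript. ENSMUST00000121638 was listed at 11.8 FPKM in Ctrl and at 0.0113, 0.0123 and 0.0142 FPKM in the other 3 libraries, where ENSMUST00000020687 stood at 22.7 to 26.0 FPKM against 9.88 FPKM in Ctrl. As in Smc4, it was the Ctrl library that differed from the other 3.

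Cdc26, the small subunit that holds Cdc16 in place in the complex, was listed at 0.758 FPKM (Ctrl), 47.5 FPKM (PGC-1α), 0.782 FPKM (Ctrl+OGD) and 0.879 FPKM (PGC-1α+OGD). A single library thus stood high and the other 3 lay close together, and Cdc26 passed the filter on low values only through that library. The log2 fold change was 4.79 in PGC-1α vs Ctrl, where 1 of all genes compared rose further, and -4.69 in PGC-1α+OGD vs PGC-1α, where 1 fell further. In the comparisons that do not use the PGC-1α library it was 0.08 (PGC-1α+OGD vs Ctrl+OGD) and 0.02 (Ctrl+OGD vs Ctrl). The other 13 subunit genes of the APC/C in the table lay between 6.72 and 92.3 FPKM. By the sum of transcripts, none of them differed by more than 0.51 on the log2 scale in any comparison. In PGC-1α the Cdc26 level was therefore in the range of the other subunits, and in the other 3 libraries it was below the lowest of them.

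The whole PGC-1α value came from ENSMUST00000084525, which has 819 bases in 4 exons and was listed at 0.113 FPKM (Ctrl), 47.5 FPKM (PGC-1α), 0.157 FPKM (Ctrl+OGD) and 0.168 FPKM (PGC-1α+OGD). ENSMUST00000107459, with 654 bases in 3 exons, was listed at 0.645, 0, 0.625 and 0.711 FPKM in the same order. Both transcripts share an identical coding sequence of 258 bases (chr4:62394845-62402804, GRCm38, minus strand), which encodes 85 residues, so their differences lie outside it. It is shown, from GENCODE release M21 with the start and stop codons in capitals, because it is the coding part that both transcripts share in full.
Cdc26: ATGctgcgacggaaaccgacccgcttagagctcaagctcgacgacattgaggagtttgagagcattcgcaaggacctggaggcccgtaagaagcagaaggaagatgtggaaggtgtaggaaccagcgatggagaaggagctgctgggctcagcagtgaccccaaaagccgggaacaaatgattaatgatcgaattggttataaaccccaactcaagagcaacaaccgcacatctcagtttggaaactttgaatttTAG
The Cdc26 promoter window held neither a CHR core nor an NF-Y box by the letters searched.

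**Figure D5:**
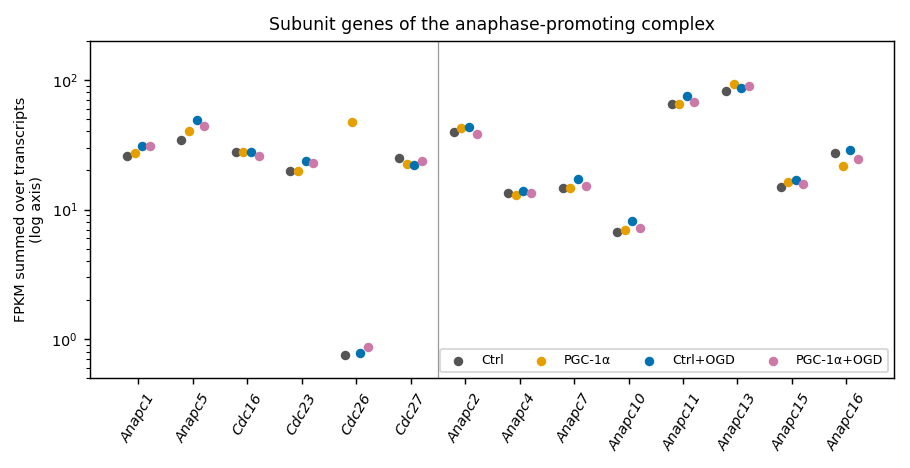
Level of the 14 APC/C subunit genes in the 4 libraries, as FPKM summed over transcripts on a log axis, with the 6 members at the left and 8 further subunit genes at the right. The 4 points of a gene lie close together for every subunit except Cdc26, which is at 47.5 FPKM in PGC-1α and below 1 FPKM in the other libraries.

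The remaining genes of the same pathways gave a wider view. The 12 genes listed as other APC/C genes were 8 subunit genes and, outside the complex, Ube2s, Fbxo5, Cdc14a and Cdc14b. Cdc14b, a phosphatase of mitotic exit, was the 1 of these 12 at least 1.5-fold higher in PGC-1α vs Ctrl. It went from 2.28 to 4.16 FPKM (0.65), where the background was 4.91%. None of the 12 was at least 1.5-fold lower there. In the other comparisons none was at least 1.5-fold higher or lower. Their medians were 0.04 in PGC-1α vs Ctrl, -0.12 in PGC-1α+OGD vs Ctrl+OGD, 0.14 in Ctrl+OGD vs Ctrl and 0.03 in PGC-1α+OGD vs PGC-1α. Ube2s, the enzyme that extends the ubiquitin chains begun by Ube2c, had 26.6, 27.3 and 27.6 FPKM in Ctrl, PGC-1α and PGC-1α+OGD and 38.1 FPKM in Ctrl+OGD, a single high library that Ube2c did not show. Cdc14a had -0.37 in PGC-1α vs Ctrl and -0.39 in Ctrl+OGD vs Ctrl, and Anapc16 had 0.16 in PGC-1α+OGD vs PGC-1α.

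Of 89 other mitosis genes, 18 were at least 1.5-fold higher and none lower in Ctrl+OGD vs Ctrl, with a median of 0.30, and 63 lay above 0 in both OGD comparisons. Over all genes compared, 6.2% were higher and 7.71% lower there, and 30.8% lay above 0 in both. The median of the 89 genes was 0.14 in PGC-1α vs Ctrl, with 6 higher and 1 lower, 0.02 in PGC-1α+OGD vs Ctrl+OGD, with 1 higher and 4 lower, and 0.21 in PGC-1α+OGD vs PGC-1α, with 3 higher and 4 lower. The shares of all genes compared, higher and lower, were 4.91% and 5.63%, 3.08% and 3.82%, and 3.82% and 5.22% in the same order. The lowest value lay in Ctrl in 55 of the 89 genes, compared with 28.2% of all genes compared. The centromere genes Cenpu and Cenpl departed furthest from 0. Cenpu was listed at 1.86 and 6.62 FPKM without OGD (Ctrl, PGC-1α) and 7.84 and 3.29 FPKM after it, and Cenpl, a gene of low level, at 0.367 and 1.90 FPKM without OGD and 2.63 and 0.352 FPKM after it.

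The 55 genes of DNA replication and S phase had medians of 0.33 in Ctrl+OGD vs Ctrl, with 10 higher and none lower, 0.11 in PGC-1α vs Ctrl and 0.12 in PGC-1α+OGD vs PGC-1α. Of all genes compared, 6.2% were higher and 7.71% lower in Ctrl+OGD vs Ctrl. In PGC-1α+OGD vs Ctrl+OGD the median of the replication genes was -0.10, and 42 of 55 lay below 0, against 52.9% of all genes compared. The members were split evenly there. A list of 27 G1 control genes had medians of 0.19 in Ctrl+OGD vs Ctrl and 0.01 in PGC-1α vs Ctrl. Besides D-type cyclin and CDK inhibitor genes it held Cdk4, Cdk6, Trp53, Mdm2, Mybl2 and genes of the Rb, E2f and Lin families.

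The count of transcripts behind a gene bears on these values, since several members changed transcript between libraries. In the 14 members with a single transcript in the table, where the sum holds no such exchange, the medians were 0.34 in Ctrl+OGD vs Ctrl, 0.23 in PGC-1α vs Ctrl, 0.03 in PGC-1α+OGD vs Ctrl+OGD and 0.20 in PGC-1α+OGD vs PGC-1α. All 14 lay above 0 in Ctrl+OGD vs Ctrl and in PGC-1α vs Ctrl, and 4 of them (Cdc20, Ccnb2, Bub1b and Ccna2) were at least 1.5-fold higher in the former. The 4199 genes compared with a single transcript had medians of 0.0049 and -0.02 in these comparisons. Of them 2124 and 1965 lay above 0, and 243 were at least 1.5-fold higher in Ctrl+OGD vs Ctrl. Some members share exons with a gene on the opposite strand that also has values, namely Ccna2, Cdc20, Cdc23, Cdc25b, Fzr1, Kif20a, Kif4, Nusap1, Prc1 and Ube2c. The library kit keeps the strand, but the strand setting of the counting is not given in the sources used here, so reads of these pairs may be mixed.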

How the data were processed

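RNA-Seq of HT-22 cells gave 1 library in each of 4 groups, assigned by the labels. Alignment by the authors used HISAT2 2.1.0 and GRCm38 (submitters' processing notes), and they deposited values for 25889 transcripts, taken as FPKM because they are never negative and the column totals differ. The unit is not named, and the quantification program, its annotation and the filter are not given in the sources used here. Every transcript reaches at least 0.500 in some library.

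Identifiers were matched without version to GENCODE release M21 (25822 matched, 67 not) and summed per symbol. Values were transformed as log2(FPKM + 1), without rescaling, and the 10604 genes with a mean of at least 1 were compared. A fold change of 1.5 was the threshold. Medians and counts of the 48 members stand beside those of all genes compared, with no test. Members and lists were chosen with earlier results of these data known.

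Named were Cdc26, the members of the 2 highest means per role, those reaching 1.5-fold, the extremes of each comparison, Ppargc1a and the 2 genes that changed most in the lists of other APC/C and other mitosis genes, except for a gene not reported here. Further members were named to complete their role set. Promoter windows came from RefSeq (40 of 49 genes matched). Tried as alternatives were no filter, pseudocounts of 0.1 and 0.01, a mean of at least 5, median ratio, upper quartile and equal total scaling, the highest transcript, protein-coding transcripts, Cdc26 included and 2-fold. The computation, in Python 3.11.15 with pandas 2.3.3, numpy 2.4.6 and, for figures, matplotlib 3.10.9, was tested on simulated data.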

Additional observations from a re-analysis of the deposited data

Results flagged for a closer look

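For 4 genes the effect of PGC-1α differed in direction with and without OGD, or that of OGD with and without PGC-1α, and passed 1.5-fold in at least one of the comparisons. These differences were not tested, since each group has 1 library.

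The effect of PGC-1α on Plk1 was 0.89 without OGD and -0.10 after OGD, a difference of -0.99 on the log2 scale. For Bub3 it was 0.72 and -0.09 by the sum of transcripts, a difference of -0.81. The main transcript, ENSMUST00000084502, had 0.96 and 0.85, with no change of direction, while ENSMUST00000207442 was listed at 16.9 FPKM in Ctrl+OGD and at 1.69 to 2.36 FPKM in the other libraries. Smc4 went the other way, with -2.02 without OGD and 0.20 after it, a difference of 2.21. The effect of OGD on Smc4 was likewise -1.71 in control cells and 0.50 in PGC-1α cells, with the same difference of 2.21, because both are built from the same 4 values. In Plk1 and Smc4 the Ctrl library was the one that stood apart. For Cdc26 the effect of OGD was close to 0 in control cells, at 0.02, and -4.69 in PGC-1α cells, a difference of -4.71, and there the PGC-1α library stood apart.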

How the results depend on the processing

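Without replicates, a median was taken as moved from a shift of 0.1 on the log2 scale and a count from 1.5 times. Over the alternatives the median of the members ranged from 0.34 to 0.47 in Ctrl+OGD vs Ctrl, from 0.23 to 0.31 in PGC-1α vs Ctrl, from -0.0024 to 0.03 in PGC-1α+OGD vs Ctrl+OGD and from 0.18 to 0.22 in PGC-1α+OGD vs PGC-1α. A median of 0.34 is that of the members with 1 transcript, an alternative chosen after the data were seen. Of these summaries 159 stayed and 13 moved. Members at least 1.5-fold higher in PGC-1α vs Ctrl numbered 7 with median ratio scaling, 7 by the highest transcript and 0 at 2-fold. Those higher in Ctrl+OGD vs Ctrl numbered 2 at 2-fold. Among smaller shifts were 3 of the former with upper quartile scaling or equal totals, 5 with a pseudocount of 0.1, and 13 of the latter with equal totals. Members below 0 in Ctrl+OGD vs Ctrl numbered 5 with upper quartile scaling and 5 with equal totals. By the highest transcript, 2 members were higher in PGC-1α+OGD vs Ctrl+OGD, 2 lower in Ctrl+OGD vs Ctrl, while 1 was higher, 1 lower and 5 below 0 in PGC-1α+OGD vs PGC-1α. With Cdc26 included, 1 was lower in PGC-1α+OGD vs PGC-1α. Kif20a reversed to -1.80 in Ctrl+OGD vs Ctrl by its highest transcript, since that is the transcript that fell. Of the values of single genes, 16 passed 1.5-fold and 9 no longer did. No paired analysis was possible because each group has 1 library. The reads behind a value are unknown, so the precision of a single value cannot be given.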
